A study of Mus musculus with 47 samples.

Results

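The 8 genes described here encode the tropomyosins Tpm1, Tpm2, Tpm3 and Tpm4 and the intermediate filament proteins desmin (Des), vimentin (Vim), nestin (Nes) and synemin (Synm). They were taken by symbol, all 8 were found, and they are 8 of the 45706 genes measured. RNA-seq had been made from C2C12, a mouse skeletal myoblast line that stops dividing and fuses into multinucleated myotubes when serum is withdrawn. C2C12 iMyoD1 carries a doxycycline (dox) inducible Halo-MyoD1 beside its endogenous MyoD1, C2C12 iCdh23 carries inducible Cdh23, a cadherin, and C2C12 iMcam carries inducible Mcam, an adhesion receptor of the immunoglobulin family. All 3 carry the transgene behind the dox-responsive TRE3G promoter after transposon integration and puromycin selection. iMyoD1 is a polyclonal population in which dox induces the protein in a part of the cells. iMyoD1 was sampled in growth medium (called 0 h, with dox for 24 h in the treated group) and after 24, 48 and 120 h of serum starvation with dox from its onset. At 120 h it was sampled as the whole culture and, after trypsin and a 40 µm strainer, as a myoblast-enriched fraction that passed it and a myotube-enriched fraction that did not. iCdh23 and iMcam were sampled at 48 h. Each condition was sampled without dox and with dox, which gives 16 groups and 47 libraries, 3 per group except 2 in the myoblast-enriched fraction with dox. Every group, the untreated ones included, carries an integrated transgene, and the libraries include no transgene-free cells given dox, so an action of dox itself and of the induced protein cannot be told apart.

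Tropomyosins are coiled-coil dimers that lie end to end along actin filaments. In striated muscle they work with troponin to gate myosin binding, and in other cells different tropomyosin products mark different actin structures. Vertebrates make many products from each tropomyosin gene by alternative first exons and alternative internal and last exons, and the muscle products of Tpm1, Tpm2 and Tpm3 differ from the cytoskeletal ones in the exon that encodes the C-terminal end, which overlaps the next dimer. Vimentin and nestin are the intermediate filament proteins of proliferating myoblasts, desmin is the filament protein that links sarcomeres in muscle, and synemin is a large partner that cannot form filaments alone and joins desmin or vimentin.

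The 6 alternative C-terminal exons that the transcript results turn on are shown here for the coding strand, 5′ to 3′, from the GRCm38 transcripts. For Tpm1, Tpm2 and Tpm3 the gene has an upstream exon (the C-terminal exon of Tpm1-205, Tpm2-202 and Tpm3-205) and a downstream exon (that of Tpm1-216, Tpm2-203 and Tpm3-201). In Tpm1-205 and Tpm3-205 the upstream exon is exon 9 of 10 and the next exon holds the last coding base. Capitals mark the bases that differ from the other exon of the same gene at the same position counted from the exon's 5′ end.
Tpm1 upstream, chr9:67029664-67029742, minus strand: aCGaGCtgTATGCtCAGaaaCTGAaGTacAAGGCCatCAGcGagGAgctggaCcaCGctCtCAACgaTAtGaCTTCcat
Tpm1 downstream, chr9:67023362-67023441, minus strand: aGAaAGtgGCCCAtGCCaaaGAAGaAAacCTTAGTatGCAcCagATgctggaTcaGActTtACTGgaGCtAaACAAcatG
Tpm2 upstream, chr4:43515924-43516003, minus strand: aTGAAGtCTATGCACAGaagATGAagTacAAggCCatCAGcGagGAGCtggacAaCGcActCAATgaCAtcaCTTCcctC
Tpm2 downstream, chr4:43514782-43514861, minus strand: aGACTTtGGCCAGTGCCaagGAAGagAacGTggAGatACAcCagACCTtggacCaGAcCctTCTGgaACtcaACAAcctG
Tpm3 upstream, chr3:90091013-90091091, plus strand: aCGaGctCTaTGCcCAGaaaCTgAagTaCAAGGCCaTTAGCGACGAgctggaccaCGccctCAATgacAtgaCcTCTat
Tpm3 downstream, chr3:90099528-90099607, plus strand: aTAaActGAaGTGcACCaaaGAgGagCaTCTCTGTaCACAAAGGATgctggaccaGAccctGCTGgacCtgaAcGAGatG
Within a gene the exons were 43.0% (34 of 79 bases), 41.2% (33 of 80) and 45.6% (36 of 79) identical for Tpm1, Tpm2 and Tpm3. Between genes, the upstream exons were 83.5% identical for Tpm1 and Tpm2, 88.6% for Tpm1 and Tpm3 and 82.3% for Tpm2 and Tpm3. The downstream exons were 71.2%, 65.0% and 60.0% identical in the same order. So an upstream exon was closer to the upstream exons of the other tropomyosin genes than to its own downstream neighbour.

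Library totals were between 15066338 and 50950674 estimated counts with a median of 22837926, and every one of the 8 genes had counts in every library. Libraries from 48 h on carry a batch label that the 0 and 24 h libraries do not, so time and batch cannot be told apart between 24 and 48 h. The counts of Myod1 itself did not check the induction, since at 28.8 to 391 CPM (counts scaled to a fixed library total) it was not higher in every dox group (at 0 h it was 171 to 181 CPM without and 178 to 197 CPM with dox, at 48 h 382 to 391 and 295 to 323 CPM), and whether reads of the transgene count toward it is unknown. Without dox, whole 120 h cultures stood apart from the fractions of the same differentiation time for Vim, Tpm3 and Synm and overlapped them for the other genes. Vim was 617 to 715 CPM in the whole cultures without dox and 1392 to 3819 CPM in the 6 fraction libraries. Tpm3 was 187 to 209 against 230.5 to 293 CPM and Synm 2.76 to 5.04 against 7.01 to 20.3 CPM. Whole cultures and fractions were deposited as separate sets, so set and fractionation cannot be told apart. The summed level of 8 myotube markers (Myog, Mymk, Myh3, Myh8, Actn2, Ttn, Ckm and Acta1) was 0.956 to 2.00 CPM at 0 h without dox, with Myh8 and Actn2, 2 of the 8, at 0 in all 3 libraries, and 11676 to 12997 CPM at 48 h in iMyoD1 without dox. Adipocyte markers summed to at most 18.7 CPM and endothelial and blood markers to at most 0.929 CPM in any library. The sum of 5 fibroblast markers was 498 to 14023 CPM, nearly all of it Col3a1, a collagen, with Tcf21 at 0 in every group, and that of 4 smooth muscle markers was 37.4 to 254 CPM. In bulk RNA, fewer cells of a type and less RNA per cell cannot be told apart. Des shares 220 exon bases with Gm15179, Tpm4 134 with Gm26586 and Synm 84 with Ttc23 on the opposite strand. The first 2 of these neighbours were at most 1.40 CPM, while Ttc23 was 14.9 to 60.3 CPM.

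Tpm2 had the widest range of the 8 genes across the 16 groups. Its group means ran from 62.8 CPM at 24 h without dox to 3205 CPM in the myotube-enriched fraction without dox, a 51.0-fold range. The highest group mean was 18.2 times the lowest for Nes, 12.6 times for Des, 11.7 times for Vim, 6.39 times for Tpm1, 5.20 times for Synm, 3.97 times for Tpm4 and 2.43 times for Tpm3. When the 16 groups were ordered by mean, 9 of 15 neighbouring pairs overlapped in their libraries for Tpm2 and for Vim, 6 for Nes, 10 for Tpm1 and for Des, 12 for Tpm4, and 13 for Tpm3 and for Synm. So only for Nes could most neighbouring groups be separated by their libraries. Synm was the scarcest of the 8, at 2.76 to 24.0 CPM, and Vim the most abundant in growth medium.

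**Figure D1:**
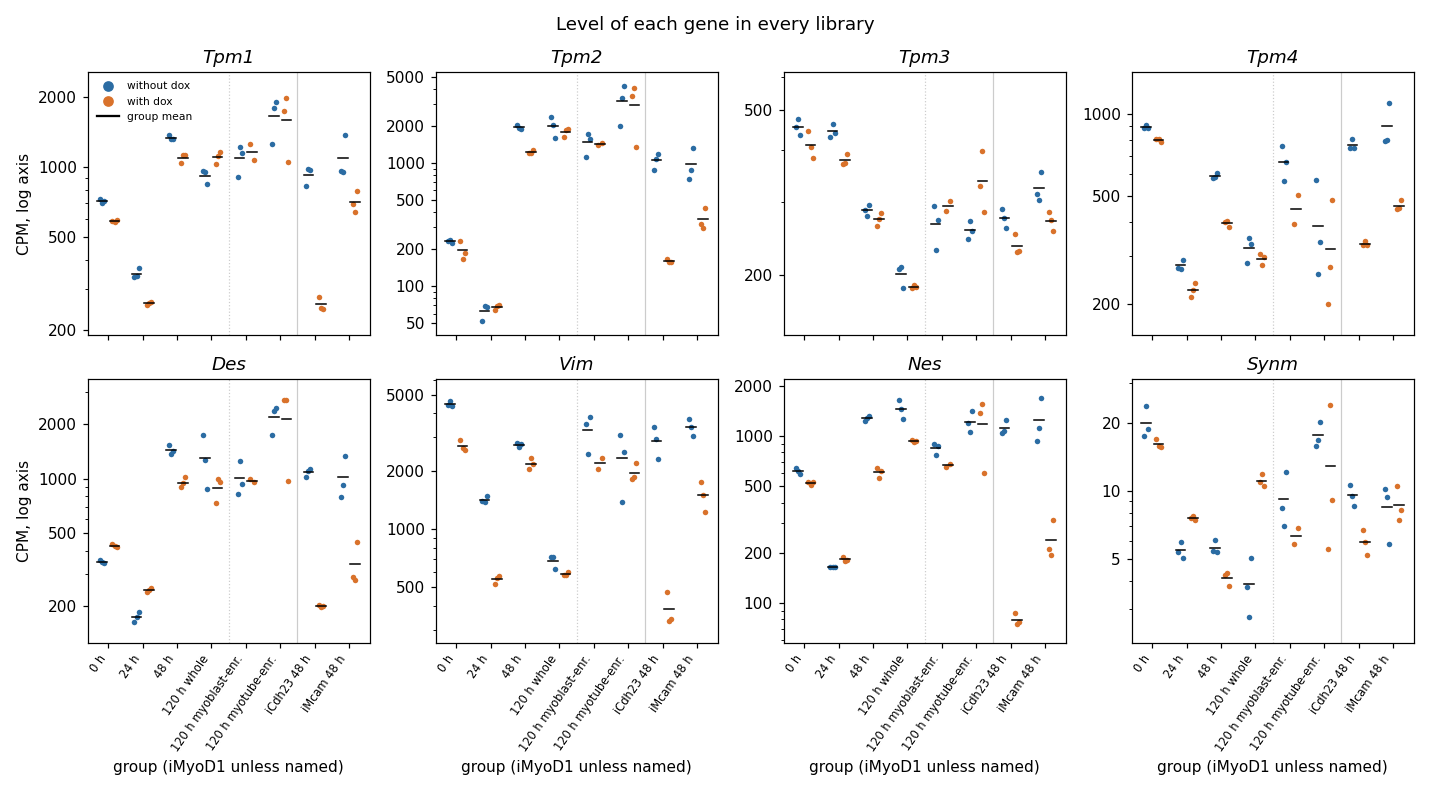
Level of each of the 8 genes in every library (CPM, log axis) by group, without dox in blue and with dox in orange, with a black bar at the group mean. In iMyoD1 without dox, Tpm2, Des and Nes are higher from 48 h on than at 0 and 24 h, Vim is highest at 0 h (4361 to 4627 CPM without dox), and Synm lies under 25 CPM in every library.

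Dividing each transcript's count by its length allows the genes to be compared with each other. At 0 h without dox, Tpm4 made up 34.6% ± 0.25 (SD, n = 3) of the length-scaled tropomyosin count, Tpm1 34.2% ± 0.70, Tpm3 17.0% ± 0.43 and Tpm2 14.2% ± 0.22. At 24 h the order was Tpm1 at 35.6%, Tpm3 at 34.1%, Tpm4 at 22.4% and Tpm2 at 7.90%. At 48 h Tpm2 held 44.4% ± 1.3, Tpm1 38.8%, Tpm4 11.0% and Tpm3 5.79%, and at 120 h in the whole culture Tpm2 held 50.4% ± 5.6. Thus in iMyoD1 whole cultures without dox Tpm2 was last of the 4 before 48 h and first from 48 h on, while the share of Tpm1 stayed between 34.2% and 38.8%. On the same scale, Vim was 91.8% ± 0.19 of the 4 filament genes at 0 h without dox and 43.6% ± 6.8 in the whole culture at 120 h. Des went from 4.32% to 36.6% over the same groups and Nes from 3.80% to 19.8%, and Synm was at most 0.278% in any group. The ratio of Vim to Des was 21.2 at 0 h, 12.7 at 24 h, 3.34 at 48 h and 1.24 in the whole culture at 120 h, all without dox.

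**Figure D2:**
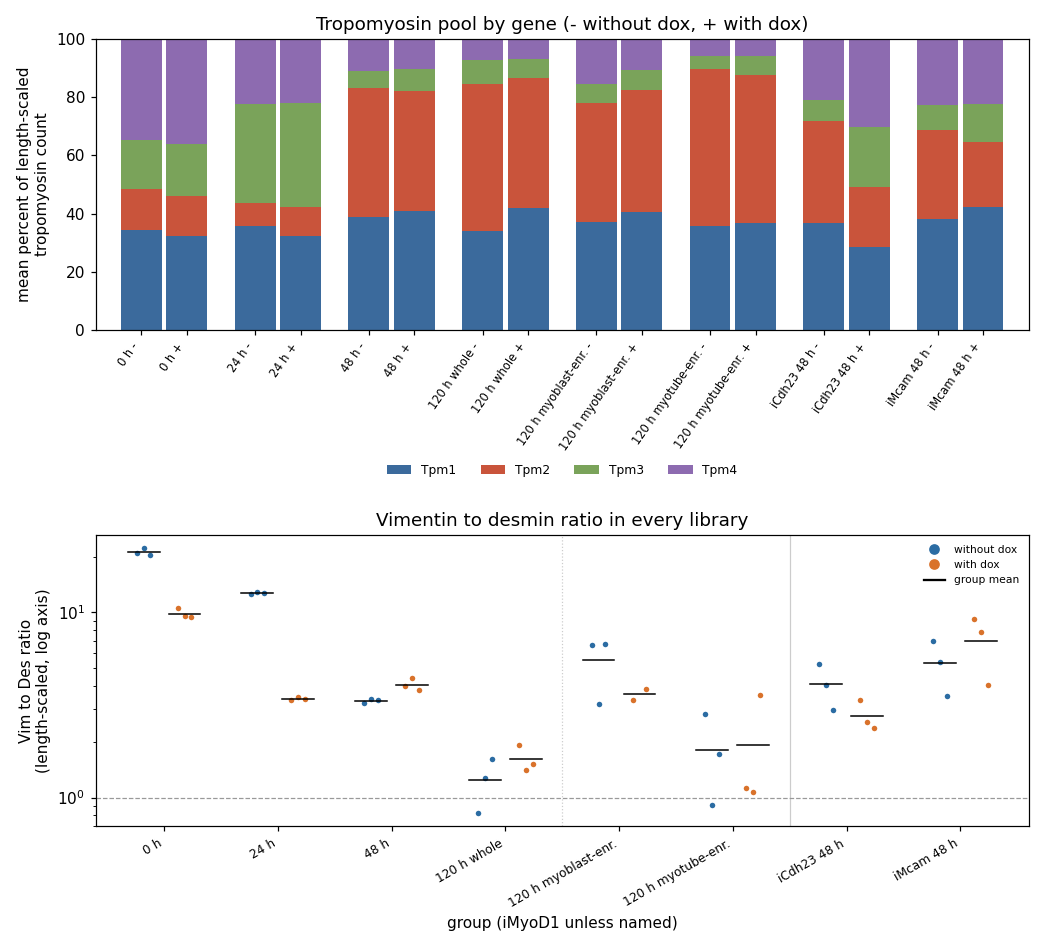
Upper panel: mean percent of the length-scaled tropomyosin count held by Tpm1 to Tpm4 in each group, without (-) and with (+) dox. Lower panel: Vim to Des ratio of length-scaled levels in every library (log axis), with the group mean as a black bar; it is 21.2 at 0 h without dox, 9.85 at 0 h with dox and 3.34 at 48 h without dox.

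In the first 24 h of serum starvation without dox, 7 of the 8 genes fell and none rose, against 74.3% of 13632 genes that changed in either direction (37.3% higher, 37.0% lower). Nes fell from 645, 620.5 and 592 CPM to 166, 164 and 164 CPM, a log2 fold change of -1.88 (adjusted p = 3.55e-12). Tpm2 fell by 1.85 on the log2 scale, Synm by 1.84, Tpm4 by 1.65 and Vim by 1.62, and Tpm1 and Des fell by 1.00 and 0.98. Tpm3 did not pass the test, with 455, 475 and 436 CPM at 0 h and 430.4, 462 and 439 CPM at 24 h (adjusted p = 0.990). For the 7 genes that fell, no 24 h library reached the level of any 0 h library, and the share of all genes that did so was not computed. With dox the same number fell, against 68.0% of all genes tested (34.0% in each direction), led by Vim at -2.31 and Tpm4 at -1.82, and Tpm3 again did not pass (adjusted p = 0.0862). Markers of myoblasts and cycling cells moved in the same libraries, from 2038 to 2068 CPM summed over 6 genes at 0 h to 629 to 691 CPM at 24 h without dox. The sum of 4 smooth muscle markers went from 161 to 175 CPM to 65.8 to 73.9 CPM. With dox these 2 sums went from 1813 to 1904 and 148 to 168 CPM to 635 to 662 and 60.4 to 62.1 CPM. The fibroblast sum went from 984 to 1063 CPM to 498 to 527 CPM with dox. The part of these sums in the results was not tested.

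Between 24 and 48 h without dox, 6 of the 8 rose and 1 fell, against 76.8% of all genes called (38.4% in each direction). Tpm2, whose striated-muscle product is the beta tropomyosin, rose from 52.1, 69.1 and 67.2 CPM to 2036, 1918 and 1889.7 CPM. That is 31.1-fold, or 4.96 on the log2 scale (SE 0.108, adjusted p = 1.23e-13). Des, the muscle filament protein, rose from 163, 173 and 185 CPM to 1537, 1365 and 1422 CPM, 8.34-fold (log2 3.06, adjusted p = 3.49e-13). Nes, which had fallen by 24 h, rose 7.81-fold to 1238, 1291 and 1310.4 CPM (log2 2.97, adjusted p = 7.19e-14). The groups did not overlap for any of these 3 genes. Tpm1, the alpha tropomyosin of fast and cardiac muscle, rose by 1.94 on the log2 scale, Tpm4, a cytoskeletal tropomyosin, by 1.09 and Vim by 0.95. Tpm3, which encodes the slow-muscle alpha product and many cytoskeletal ones, fell to 288, 277 and 296 CPM (log2 -0.62, adjusted p = 4.06e-07). Synm did not pass (5.36, 5.92 and 5.06 CPM at 24 h, 5.41, 6.05 and 5.36 CPM at 48 h, adjusted p = 0.773). The median log2 fold change of the 8 genes was 1.52 beside -0.02 over all genes tested. The fibroblast marker sum went from 1475 to 1567 CPM at 24 h to 7445 to 8057 CPM at 48 h, and that of the myoblast and cycling markers from 629 to 691 CPM to 1277 to 1296 CPM, and their part in the result was not tested.

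With dox, all 8 passed between 24 and 48 h, 6 higher and 2 lower, against 72.4% of all genes tested (36.9% higher, 35.5% lower). Tpm2 rose by 4.17 on the log2 scale, Tpm1 by 2.05, Vim by 1.98, Des by 1.94, Nes by 1.71 and Tpm4 by 0.79. Synm fell by 0.90 and Tpm3 by 0.49. The treated and untreated time courses each have their own libraries, and the myotube marker sum that moved beside them was 10.5 to 11.5 CPM at 24 h and 4592 to 4861 CPM at 48 h, both with dox. The fibroblast sum went from 498 to 527 CPM to 3567 to 4273 CPM and the smooth muscle sum from 60.4 to 62.1 CPM to 135 to 139.6 CPM, and the part of these sums in the result was not tested.

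From 48 to 120 h in whole cultures without dox, 4 of the 8 fell and none rose, against 67.1% of all genes (33.0% higher, 34.1% lower). Vim fell from 2790.5, 2671 and 2782 CPM to 714, 715 and 617 CPM (log2 -1.99, adjusted p = 5.69e-07). Tpm4 fell by 0.85, Tpm1 by 0.52 and Tpm3 by 0.50 on the log2 scale. Tpm2, Des and Nes did not pass the test and ranged widely at 120 h, Des for example from 873 to 1737 CPM. In the same libraries the myoblast and cycling marker sum went from 1277 to 1296 CPM at 48 h to 482 to 574 CPM at 120 h, the fibroblast sum from 7445 to 8057 CPM to 4304 to 6154 CPM, and the smooth muscle sum from 180.0 to 190.1 CPM to 51.5 to 109 CPM. With dox these sums went from 645 to 698, 3567 to 4273 and 135 to 139.6 CPM to 545 to 609, 2716 to 2893 and 49.9 to 66.8 CPM, and the myotube marker sum from 4592 to 4861 to 9498 to 11214 CPM. Single markers went both ways: with dox 3 of the 6 myoblast and cycling markers rose and 3 fell. With dox, 5 of the 8 myotube markers rose and 3 fell, and without dox 1 fibroblast marker rose and 2 fell. The part of these sums in the results was not tested. With dox, 3 rose and 3 fell, against 73.5% of all genes (34.9% higher, 38.6% lower): Synm rose by 1.43, Nes by 0.63 and Tpm2 by 0.55, and Vim fell by 1.90, Tpm3 by 0.53 and Tpm4 by 0.42. The fall of Tpm3 rests on the count scale. With the mean transcript length of the gene as an offset, its log2 fold change was 0.20 without dox (adjusted p = 0.462) and 0.04 with dox (adjusted p = 0.880). For some genes the 120 h whole cultures also differ from the fractions of the same time. With the fractions in their place, a comparison chosen after seeing the data, 1 of the 8 passed without dox and 0 with dox. The log2 fold change of Vim was then -0.0062 without dox (adjusted p = 0.989) and -0.057 with dox (adjusted p = 0.992). Tpm1, Tpm3 and Tpm4 also did not pass without dox.

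**Figure D3:**
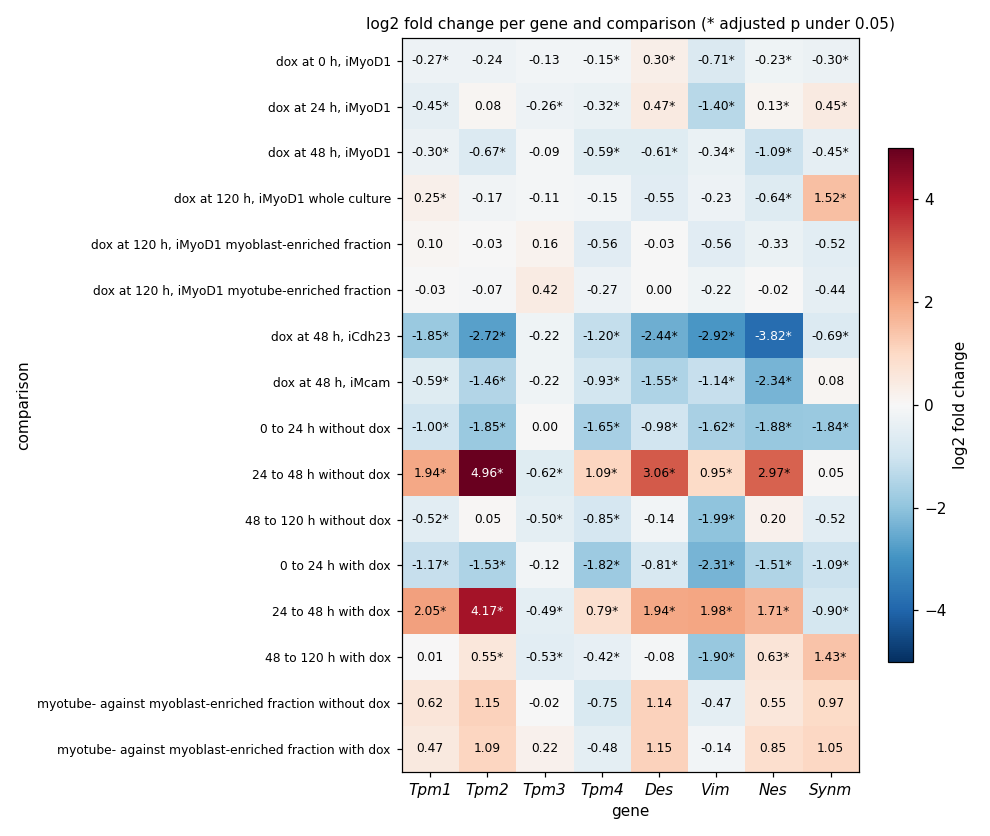
log2 fold change of each gene (columns) in each of the 16 comparisons (rows), red for higher and blue for lower, with an asterisk where the adjusted p was under 0.05. The strongest red is Tpm2 between 24 and 48 h (4.96 without dox) and the strongest blue is Nes with dox in iCdh23 (-3.82).

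In iMyoD1, Vim was lower with dox at 0, 24 and 48 h, while Des was higher with dox at 0 and 24 h and lower at 48 h. In growth medium 1 of the 8 rose and 5 fell with dox, against 37.8% of all genes (19.1% higher, 18.7% lower). Vim fell from 4429.9, 4627 and 4361 CPM to 2921, 2649 and 2587 CPM (log2 -0.71, SE 0.057, adjusted p = 5.67e-07). Des rose from 356, 348 and 345 CPM to 438, 426 and 422 CPM (log2 0.30, adjusted p = 0.000246). Neither gene's groups overlapped. Tpm1, Tpm4, Nes and Synm fell by 0.27, 0.15, 0.23 and 0.30, and Tpm2 and Tpm3 did not pass. Synm did not pass by DESeq2 (adjusted p = 0.0778, by edgeR 0.0427) or with the length offset (0.0698). With 1 library left out, Tpm4 did not pass without replicate 2 with dox or any 1 of the untreated libraries (adjusted p = 0.0567 to 0.108), nor did Synm without replicate 2 or 3 with dox or replicate 2 without (0.0928 to 0.257). The fibroblast marker sum was 1636 to 1744 CPM without and 984 to 1063 CPM with dox, the myoblast and cycling sum 2038 to 2068 and 1813 to 1904 CPM, and the myotube sum 0.956 to 2.00 and 3.87 to 4.74 CPM, and their part in the result was not tested.

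At 24 h with dox, 3 of the 8 rose and 4 fell, against 62.8% of all genes (31.1% higher, 31.7% lower). Vim fell from 1392, 1391 and 1484 CPM to 518, 554 and 572 CPM, a log2 fold change of -1.40 (SE 0.063, adjusted p = 4.72e-09) and the only one of the 8 lower by over 2-fold, as 5.13% of all genes were. Des rose by 0.47 to 239, 244 and 249 CPM, Synm rose by 0.45 and Nes by 0.13. Tpm1 fell by 0.45, Tpm4 by 0.32 and Tpm3 by 0.26. At this time Tpm1, Tpm3, Tpm4 and Vim were thus lower with dox, while Des, Nes and Synm were higher, and Tpm2 did not pass (log2 0.08, adjusted p = 0.478). Nes did not pass without any 1 of the dox libraries or without replicate 2 without dox (adjusted p = 0.0668 to 0.160), nor with no low-count filter (0.116) or all groups in 1 fit (0.167). The Vim to Des ratio was 3.41 ± 0.066 with dox and 12.7 ± 0.12 without. The fibroblast marker sum was 498 to 527 CPM with dox and 1475 to 1567 CPM without. Of 3 fibroblast markers tested, 1 was higher and 1 lower, and the part of the sum in the result was not tested.

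At 48 h, 7 of the 8 fell with dox and none rose, against 56.6% of all genes (27.9% higher, 28.7% lower), and Tpm3 did not pass (log2 -0.09, adjusted p = 0.248). Nes fell from 1238, 1291 and 1310.4 CPM to 645, 563 and 618 CPM (log2 -1.09, SE 0.078, adjusted p = 9.99e-07). Tpm2 fell to 1216, 1212 and 1274 CPM (log2 -0.67) and Des to 894, 943 and 1017 CPM (log2 -0.61). Tpm4, Synm, Vim and Tpm1 fell by 0.59, 0.45, 0.34 and 0.30. No library with dox reached any library without dox for these 7 genes, and the share of all genes that separated in this way was not computed. By DESeq2 Synm did not pass at 48 h (adjusted p = 0.0525, by edgeR 0.0185), nor by edgeR without replicate 2 without dox (0.0697) or with all groups in 1 fit (0.0664). The median log2 fold change of the 8 was -0.52 beside 0.01 over all genes tested, and the myotube marker sum was 4592 to 4861 CPM with dox and 11676 to 12997 CPM without. The myoblast and cycling markers summed to 645 to 698 CPM with and 1277 to 1296 CPM without dox (1 of 6 higher, 5 lower). The fibroblast markers summed to 3567 to 4273 and 7445 to 8057 CPM. The smooth muscle markers summed to 135 to 139.6 and 180.0 to 190.1 CPM (of 3 tested, 1 higher and 2 lower). The part of these 4 sums in the result was not tested.

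At 120 h in the whole culture, 2 rose and 1 fell with dox, against 45.2% of all genes (21.4% higher, 23.7% lower). Synm rose from 3.74, 2.76 and 5.04 CPM to 10.9, 11.9 and 10.5 CPM (log2 1.52, SE 0.233, adjusted p = 0.000752), the only one over 2-fold, beside 7.32% of all genes higher by over 2-fold. Nes fell from 1641, 1444 and 1261 CPM to 946, 928 and 938 CPM (log2 -0.64, adjusted p = 0.000959). Tpm1 rose by 0.25 (adjusted p = 0.0447), with 957, 949 and 849 CPM without dox and 1028, 1116 and 1158 CPM with it. Leaving out the third whole culture without dox, in which Des and Tpm2 were lowest, raised the number of the 8 that passed to 5. Tpm1 did not pass when that library, replicate 2 without dox or any 1 of the dox libraries was left out (adjusted p = 0.0532 to 0.195), nor with no low-count filter (0.0696), the length offset (0.0720) or the replicate block (0.149). The myotube marker sum was 9498 to 11214 CPM with dox and 13796 to 17041 CPM without (2 of 8 higher, 4 lower). The fibroblast marker sum was 2716 to 2893 and 4304 to 6154 CPM. The myoblast and cycling sum was 545 to 609 CPM with dox and 482 to 574 CPM without (4 of 6 higher, 1 lower). The part of these sums in the result was not tested. Synm shares 84 exon bases with Ttc23, 1.06% of its own. No strand setting of the counting is stated, so counts from these bases could come from either gene.

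The fall of Vim with dox was larger at 24 h than at 0 h by 0.74 on the log2 scale in a test of the difference itself (adjusted p = 3.83e-06). In that test 5 of the 8 passed, against 34.1% of all genes: the falls of Tpm1 and Tpm4 were also larger at 24 h (both by 0.22), and the dox effect was higher at 24 h for Nes (0.32) and Synm (0.71, adjusted p = 0.0023). Tpm1 and Tpm4 no longer passed, which left 3 of the 8, with RLE scaling (adjusted p = 0.0796 and 0.103) or without replicate 1 with dox at 24 h (0.0567 and 0.0992), and neither passed with no low-count filter (0.116 and 0.123). Tpm1 also did not pass without replicate 2 without dox at 0 h (0.0578), nor Tpm4 without replicate 2 with dox or replicate 1 or 3 without dox at 0 h, or replicate 2 with dox or replicate 3 without dox at 24 h (0.05002 to 0.0781). Between 48 and 120 h, 5 of the 8 passed as well, against 34.1% of all genes. All 5 differences were positive: 1.97 for Synm (adjusted p = 7.88e-05), 0.55 for Tpm1, 0.51 for Tpm2, 0.45 for Nes and 0.44 for Tpm4. Without replicate 2 with dox at 48 h, 3 passed, and Tpm2 and Nes did not (adjusted p = 0.0716 and 0.0637). Tpm2 also did not pass without replicate 1 with dox or replicate 1 or 2 without dox at 48 h, or replicate 2 or 3 with dox or replicate 2 without dox at 120 h (0.0506 to 0.0764). For Des and Vim the difference did not pass, with 95% intervals from -0.49 to 0.63 and from -0.13 to 0.35.

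In the fractions at 120 h, no dox effect on any of the 8 passed the edgeR test without a replicate block. In the myoblast-enriched fraction 4.34% of all genes were called (1.82% higher, 2.52% lower) and the log2 fold changes of the 8 lay between -0.56 and 0.16. With the replicate block Tpm4 passed (adjusted p = 0.028), and without replicate 2 without dox 1 of the 8 passed. The fibroblast marker sum was 4607 to 5575 CPM with dox and 13071 to 14023 CPM without. The myotube marker sum was 4241 to 4641 CPM with dox and 5670 to 8291 CPM without, and the part of these sums was not tested. In the myotube-enriched fraction 0% were called by edgeR, 79 genes had an unadjusted p under 0.05 and DESeq2 called 2. There the third library with dox was low in Tpm2 (1349.9 CPM, the others 3527 and 4059.8), Des (967, the others 2698 and 2705) and Nes (605, the others 1368 and 1563), and its myotube marker sum was the lowest of its group at 4619 CPM.

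Comparing the fractions with each other without dox, Tpm2 was 1117, 1710.0 and 1581 CPM in the myoblast-enriched and 2013, 3368 and 4234 CPM in the myotube-enriched fraction. Des was 824, 1256 and 933 CPM against 1739, 2351 and 2448 CPM, and Synm was 8.42, 7.01 and 12.1 CPM against 15.9, 16.9 and 20.3 CPM. The libraries did not overlap for 5 of the 8 genes. These were the 3 above, Tpm1 (907 to 1223 against 1254 to 1901 CPM) and Nes (means of 846 and 1223 CPM). The share of all genes without overlap was not computed. None of the 8 passed by edgeR without a replicate block (for the first 3, log2 1.15, 1.14 and 0.97, adjusted p = 0.145, 0.0867 and 0.117), against 0.592% of all genes (0.578% higher, 0.0143% lower). The fractions of 1 number deviated together. With the replicate number as a block Tpm2, Des and Synm passed (adjusted p = 0.028, 0.0202 and 0.0328), as they did by DESeq2 (adjusted p = 0.0056, 0.000187 and 0.0107). The myotube marker sum was 5670 to 8291 CPM in the myoblast-enriched and 12602 to 19231 CPM in the myotube-enriched libraries. With dox no gene was called by edgeR between the fractions (0% called, 183 genes with an unadjusted p under 0.05, 9 by DESeq2).

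With dox in iCdh23 at 48 h, 7 of the 8 genes fell, 6 of them over 2-fold. Of all genes, 63.8% were called (31.3% higher, 32.4% lower), 17.0% as lower by over 2-fold. Nes was 1042, 1073 and 1253 CPM without dox and 86.9, 75.5 and 76.8 CPM with it (log2 -3.82, SE 0.128, adjusted p = 4.56e-06). Vim fell from 3407, 2949 and 2313 CPM to 471, 334 and 340.0 CPM (log2 -2.92, adjusted p = 2.25e-05). Tpm2 fell from 877, 1078 and 1195 CPM to 166, 157 and 156 CPM (log2 -2.72, adjusted p = 6.75e-06). Des was low with dox as Vim and Nes were, and fell from 1022, 1098 and 1122 CPM to 203, 196 and 198 CPM (log2 -2.44). Tpm1, Tpm4 and Synm fell by 1.85, 1.20 and 0.69, and Synm did not pass with all groups in 1 fit (adjusted p = 0.138). Tpm3 did not pass, at 288, 274 and 261 CPM without dox and 251, 227 and 228 CPM with it (log2 -0.22, adjusted p = 0.0703). In the length-scaled tropomyosin count, Tpm4 was 30.1%, Tpm1 28.5%, Tpm2 20.7% and Tpm3 20.6% with dox, and 20.9%, 36.9%, 34.8% and 7.39% without. The myotube marker sum moved with these genes, from 5012 to 8641 CPM without dox to 34.6 to 117 CPM with dox. That of the myoblast and cycling markers went from 823 to 1246 CPM to 123 to 174 CPM. The fibroblast sum went from 5799 to 6540 CPM to 581 to 689 CPM. The smooth muscle sum went from 159.5 to 206 CPM to 37.4 to 52.6 CPM, though 2 of its 4 markers were higher and 2 lower. The part of these sums in the result was not tested.

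With dox in iMcam, 6 of the 8 genes fell, 4 of them over 2-fold. Of all genes, 49.0% were called (24.2% higher, 24.8% lower), 9.85% as lower by over 2-fold. Nes fell from 937, 1123 and 1682 CPM to 212, 194 and 315 CPM (log2 -2.34, SE 0.262, adjusted p = 0.000547). Des fell from 795, 924 and 1324 CPM to 287, 275 and 448 CPM (log2 -1.55) and Tpm2 from 748, 882 and 1331 CPM to 318, 299.6 and 429 CPM (log2 -1.46). Replicate 3 was the highest of its group for these 3 genes both without and with dox. Vim fell from 3729, 3401 and 3064 CPM to 1764, 1505 and 1233 CPM (log2 -1.14), Tpm4 by 0.93 and Tpm1 by 0.59, while Tpm3 and Synm did not pass. Tpm1 did not pass without replicate 1 or replicate 2 with dox (adjusted p = 0.0609 and 0.0792). The myotube marker sum was 3746 to 9196 CPM without dox and 493 to 1562 CPM with dox, that of the myoblast and cycling markers 741 to 920 and 180 to 265 CPM, that of the fibroblast markers 7252 to 9682 and 3028 to 3833 CPM, and that of the smooth muscle markers 186 to 245 and 87.4 to 132 CPM, and their part in the result was not tested.

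The dox effect was smaller in iMcam than in iCdh23 for 4 of the 8 genes in a test of the difference, against 10.6% of all genes. The difference was 1.76 on the log2 scale for Vim (adjusted p = 0.00216), 1.45 for Nes (adjusted p = 0.0122), 1.24 for Tpm1 (adjusted p = 0.00381) and 1.23 for Tpm2 (adjusted p = 0.0191, 0.0528 without replicate 2 of iCdh23 with dox and 0.0509 without replicate 2 of iMcam without dox). Des did not pass without a replicate block (0.87, 95% interval 0.25 to 1.48, adjusted p = 0.0733) and passed with one (adjusted p = 0.0172), as did Synm (0.75, adjusted p = 0.134 and 0.0333). The lines are separate populations, so line and transgene cannot be told apart.

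The tropomyosin genes also exchanged transcripts. The 11 transcripts that held at least 10% of their gene's count in some group were 3 of 21 for Tpm1 (together 92.1% of the count), 2 of 6 for Tpm2 (97.7%), 5 of 17 for Tpm3 (96.8%) and 1 of 2 for Tpm4. Tpm1-205 and Tpm1-216 both start at the distal first exon and encode 284 residues but carry the upstream and the downstream exon shown above, while Tpm1-211 starts at an internal promoter, encodes 248 residues and ends on the downstream exon. Tpm2-202 and Tpm2-203 encode 284 residues each and differ in the C-terminal exon and in exon 6, of which the copies are 53.9% identical. Tpm3-205 encodes 284 residues and carries the upstream exon, and Tpm3-201 encodes 248 and ends on the downstream exon. Shares are percents of the gene's estimated count. They are not scaled by transcript length, which differs within a gene (2098 bases for Tpm2-202 and 1164 for Tpm2-203). A share is said to have changed only where a gene-wise exon usage test and a test of each transcript against its gene's count both passed.

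Between 24 and 48 h without dox, 5 of 10 transcripts tested changed in share, against 6.23% and 13.4% of all transcripts in the respective tests. Tpm1-205 was 2.40%, 1.69% and 2.59% of the Tpm1 count at 24 h and 65.8%, 65.8% and 65.3% at 48 h (adjusted p = 1.02e-25 and 0.000358). Tpm1-211 fell from 56.3%, 59.0% and 59.9% to 5.96%, 6.54% and 5.65% (adjusted p = 7.75e-19 and 7.94e-05). Together, the 7 Tpm1 transcripts that end on the downstream exon went from 90.9% ± 1.0 to 29.7% ± 0.38 of the count. Tpm2-202 rose from 37.2% ± 2.1 to 79.9% ± 1.2 and Tpm2-203 fell from 59.0% ± 1.0 to 18.1% ± 1.1 (n = 3 each). Tpm3-202 rose from 5.54% to 22.4%, a change that did not pass the exon usage test without any 1 of the 24 h libraries (adjusted p = 0.0576 to 0.0696) or with a mean of at least 10 counts (0.0904). Both Tpm1 and Tpm2 thus gave more of their count to the transcript with the upstream C-terminal exon. Before this, from 0 to 24 h, 2 of 9 changed without dox (against 1.19% and 1.87%), both of Tpm1: Tpm1-216 fell from 51.1% to 21.9% and Tpm1-211 rose from 31.8% to 58.4%. At this step both transcripts end on the downstream exon and differ in the first exon.

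Between 48 and 120 h without dox, 1 of 10 changed, against 9.56% and 18.7%: Tpm1-216 fell from 22.6% to 8.18%. By the exon usage test 3 in place of 1 passed without replicate 2 at 48 h or replicate 1 at 120 h. With dox 5 of 9 changed over that interval, against 15.9% and 30.1%. Tpm3-201 fell from 75.3% ± 1.6 to 1.05% ± 0.58 and Tpm3-205 rose from 0.628% to 15.97% ± 1.3 (adjusted p = 0.00457 and 0.00717). Tpm1-205 rose from 39.2% to 76.8%, Tpm1-216 fell from 30.2% to 3.22% and Tpm2-203 fell from 21.2% to 4.94%. Without replicate 2 at 48 h, or replicate 2 or 3 at 120 h, the transcripts that passed the exon usage test went from 6 to 3, and neither Tpm1-205 (adjusted p = 0.0536 to 0.0667) nor Tpm3-205 (0.142 to 0.230) passed. Tpm3-205 did not pass without replicate 3 at 48 h either (0.280), nor with a mean of at least 10 counts (0.0893). In whole cultures without dox Tpm3-201 was likewise low at 120 h, with 16.1%, 4.03% and 2.23%, but in the 6 fraction libraries without dox it was 18.9% to 73.2%. Tpm3-202 held 27.9% without and 22.2% with dox in the whole cultures at 120 h, and most of the remaining Tpm3 count went to Tpm3-204 and to ENSMUST00000062193, a transcript that GENCODE vM21 does not list. In 3 of the 6 whole cultures 1 of these last transcripts held 48.5% to 55.6% and the other 0, so the split between them is uncertain and is not read as a change. With dox the earlier steps had the same counts: 2 of 9 changed from 0 to 24 h (against 1.29% and 2.64%) and 5 of 8 from 24 to 48 h (against 10.3% and 21.8%).

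**Figure D4:**
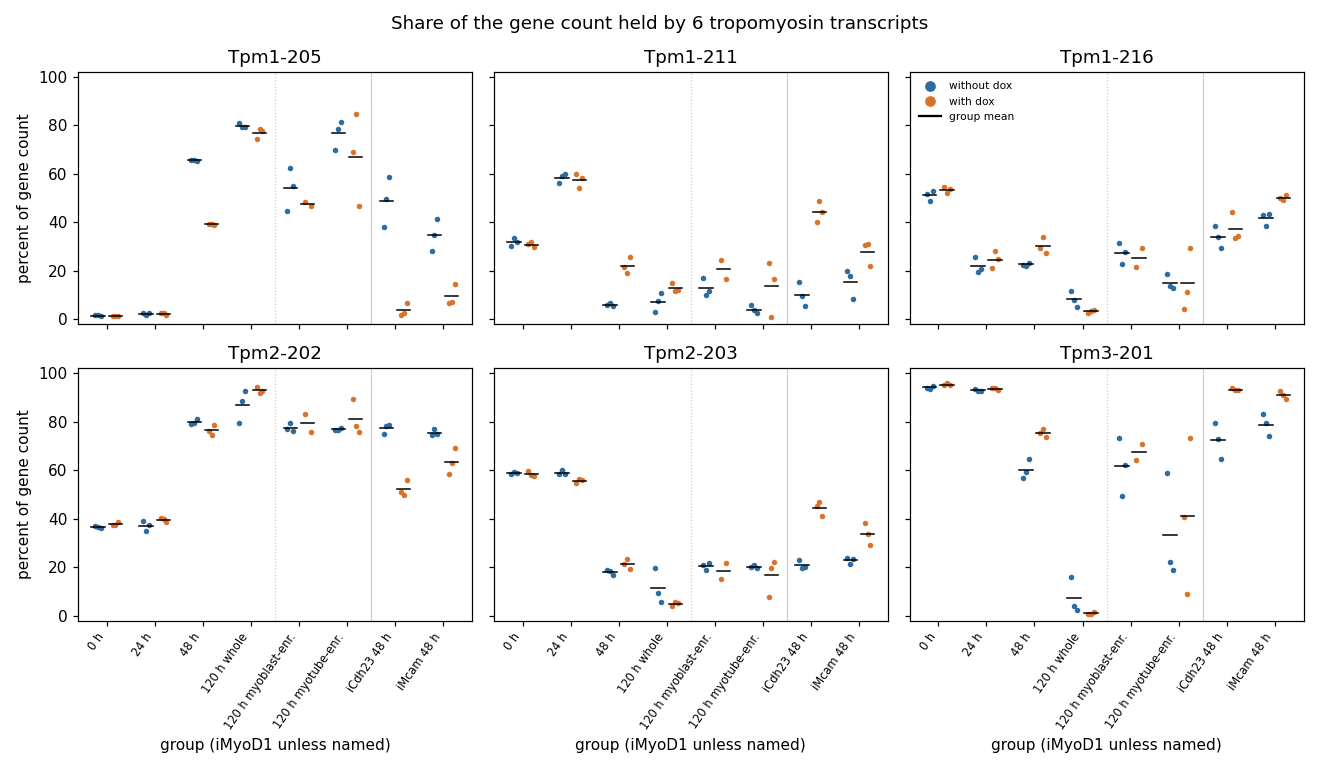
Percent of the gene's estimated count held by 6 tropomyosin transcripts in every library, without dox in blue and with dox in orange, with a black bar at the group mean. Tpm1-205 is 1.32% to 2.65% at 0 and 24 h and 65.3% to 65.8% at 48 h without dox, and Tpm3-201 falls near 0 in the whole cultures at 120 h with dox (0.572% to 1.70%).

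With dox in iMyoD1, 2 of 9 transcripts changed in share at 48 h by both tests, against 0.750% and 0.247% of all transcripts. In the other 5 iMyoD1 dox comparisons none passed both, and the differences between times were not tested. In the whole culture at 120 h the exon usage test passed 0, but 3 without replicate 3 without dox and 1 without replicate 1 with dox. Tpm1-205 was 65.8%, 65.8% and 65.3% without dox and 39.2%, 39.5% and 38.9% with it (adjusted p = 0.0106 and 1.51e-05). Tpm1-211 was 6.05% ± 0.45 without and 22.1% ± 3.3 with dox (adjusted p = 1.52e-10 and 0.0247). The Tpm1 transcripts that end on the downstream exon held 29.7% without and 53.4% with dox. Leaving out any library without dox, or replicate 2 with dox, reduced the transcripts that passed the exon usage test from 2 to 1. The one that no longer passed was Tpm1-205 (adjusted p = 0.0803 to 0.132).

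In iCdh23, 5 of 9 transcripts changed with dox, against 1.95% and 6.37% of all transcripts. Tpm1-205 was 38.2%, 49.7% and 58.8% without dox and 1.69%, 2.65% and 6.64% with it (adjusted p = 5.63e-13 and 0.024). Tpm1-211 rose from 10.2% ± 5.1 to 44.3% ± 4.5 and Tpm2-203 from 20.9% ± 1.7 to 44.5% ± 3.2, while Tpm3-202 fell from 15.2% to 2.46% and Tpm3-204 from 6.86% to 0.0244%. In iMcam no transcript passed both tests, against 0.534% and 0.386%. Tpm1-205 was 28.0%, 34.9% and 41.5% without dox and 6.84%, 7.31% and 14.7% with it, did not overlap between groups, and passed the exon usage test (adjusted p = 6.86e-07, and 7.21e-10 with the replicate block) but not the other (adjusted p = 0.109). Without replicate 3 of either iMcam group the exon usage test passed 2 in place of 1. In the fractions no named transcript that was tested passed in any comparison by either test without a block. With the replicate number as a block, the exon usage test passed 3 transcripts in iMcam in place of 1, and 1 between the fractions without dox in place of 0.

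Other genes of the same filaments were followed as lists, and the percents of all genes called are given once for each comparison. Between 24 and 48 h without dox, 38.4% of all genes rose and 38.4% fell. All 6 actin genes rose between 24 and 48 h without dox, the median of their log2 fold changes being 3.74 beside -0.02 over all genes, and all 6 fell with dox in iCdh23 and in iMcam, where 32.4% and 24.8% of all genes fell. Acta1, the skeletal muscle actin, was 2.45 ± 0.62 CPM (SD, n = 3) at 24 h and 5969 ± 341 CPM at 48 h, and the cytoskeletal Actb was 918 ± 32.1 and 2000.3 ± 81.2 CPM. Of 11 thin filament partners tested over that step, 9 rose and 1 fell, Cald1 (caldesmon, log2 -0.65), while Neb (nebulin, log2 9.83), Cnn3 and Cnn2 (calponins, 1.98 and 1.72) rose. Of 7 other intermediate filament genes tested, 6 rose over that step, among them Lmnb2 (a lamin of the nuclear envelope, log2 2.26) and Sync (syncoilin, a muscle filament partner, log2 2.77), and all 6 tested fell with dox at 48 h in iMyoD1, as did 28.7% of all genes. Of 12 linkers and chaperones tested, 8 rose and 3 fell between 24 and 48 h without dox, Dst (dystonin) falling by 0.73. At 120 h 9 of 13 fell with dox in the whole culture and 1 rose, against 23.7% and 21.4% of all genes, with Plec (plectin, which ties filaments to junctions) at -1.26 and Flnc (filamin C) at -1.07.

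Of 14 regulators of tropomyosin splicing, 6 rose and 5 fell between 24 and 48 h without dox, against 38.4% of all genes in each direction. Rbfox2 rose by 0.33 and Qk (quaking) by 0.75, and Srsf3 and Mbnl1 (muscleblind) fell by 0.29 and 0.36. Over the next interval, to 120 h, 10 of 14 rose and 2 fell without dox, against 33.0% and 34.1% of all genes. With dox at 48 h, 9 of 14 fell and none rose in iMyoD1 (28.7% of all genes fell, 27.9% rose), and 9 fell and 1 rose in iCdh23 (32.4% fell, 31.3% rose), where Qk fell by 1.56 and Mbnl1 by 1.08.

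Across the 16 group means, the gene most like Tpm2 was Tnnt2, a troponin T, with a Pearson r of 0.991 on log2(CPM + 1) among 10888 genes compared. The closest to Tpm1 was Klhl30 (0.951), to Des Bin1 (0.982), to Nes Lpar1 (0.974), to Vim Eno1 (0.954), to Tpm3 Nme7 (0.945), to Tpm4 P4hb (0.933) and to Synm Trim7 (0.881). Among the 8 genes themselves, Tpm2 was closest to Des (0.963), and Tpm2 and Tpm3 had the most negative value (-0.60). These correlations run over 16 groups of 1 cell background that share batches and are given without a test.

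Des and Tpm2, the members that rose most between 24 and 48 h without dox, are shown with the 250 bases before and 50 after their RefSeq start (GRCm38.p6), 5′ to 3′ on the coding strand, with capitals at matches of CANNTG, the E-box core bound by MyoD1 and many other factors.
Des, chr1:75360042-75360341, plus strand: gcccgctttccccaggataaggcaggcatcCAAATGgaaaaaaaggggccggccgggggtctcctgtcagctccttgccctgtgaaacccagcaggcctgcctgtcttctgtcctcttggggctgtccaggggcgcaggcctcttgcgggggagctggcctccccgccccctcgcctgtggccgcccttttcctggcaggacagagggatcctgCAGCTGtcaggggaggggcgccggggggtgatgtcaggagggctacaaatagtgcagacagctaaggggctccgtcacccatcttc
Tpm2, chr4:43523505-43523804, minus strand: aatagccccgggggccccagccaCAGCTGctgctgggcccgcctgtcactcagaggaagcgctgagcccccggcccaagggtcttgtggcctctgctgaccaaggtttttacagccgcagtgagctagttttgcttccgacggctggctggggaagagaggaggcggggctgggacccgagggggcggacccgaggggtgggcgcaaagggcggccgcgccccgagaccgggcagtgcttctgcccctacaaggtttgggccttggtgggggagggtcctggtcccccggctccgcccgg
The 8 genes have 9 such windows, since Tpm3 has 2. CANNTG was found on either strand in 7 of the 9, beside 72.3% of all 32851 windows, and CAGCTG, which is also a CANNTG match, in 4 (Des, Tpm2, Tpm4 and 1 window of Tpm3), beside 16.3%. The Vim and Nes windows held neither. No window of the 8 genes held the MEF2 motif or the CArG box, which were in 3.19% and 1.63% of all windows. A match is a description of these letters only.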

How the data were processed

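RNA-seq of 47 mouse C2C12 libraries in 16 groups was used (poly(A) RNA, mm10 per the labels). The authors deposited estimated counts per transcript from salmon, in 3 tables of 109617 transcripts each. Between 30.97% and 34.36% of the values are not whole, no normalization had been applied, and the annotation release and strand setting are not given in the sources used here. Transcripts were summed to 45706 genes and rounded to whole numbers. GENCODE vM21 matched 98.72% of the transcripts. Each comparison used edgeR 4.0.16 (R 4.3.3): filterByExpr, TMM, quasi-likelihood test, Benjamini-Hochberg adjustment over all genes, threshold 0.05, with the study's 2-fold beside it. Levels are CPM with TMM over all libraries, and shares between genes were scaled by transcript length. Transcript usage was tested with diffSpliceDGE of edgeR. On simulated data that test also called transcripts of unchanged genes, so a quasi-likelihood test with the gene's count as offset was added after seeing the data, and a change is stated only where both passed.

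The 8 genes and the gene lists were chosen with earlier results of these data known. The text names the 8 genes, tropomyosin transcripts with at least 10% of their gene's count in any group mean, up to 4 genes of highest mean level per list, and the genes most alike among those with a mean of at least 5 CPM. All scripts for many genes were tested on simulated data. Libraries of a group differed beyond sampling noise (chi-square per gene 3.04 to 410.5 over 46 pairs). The labels call the replicates biological without saying how they were separated, and p-values measure the spread between these samples. Replicate numbers were taken to pair samples where every pair of deviations from the group means correlated above 0.1. That held with dox in iCdh23 (0.14 to 0.28) and iMcam (0.41 to 0.52) and between the fractions without dox (0.21 to 0.54). With dox in the myoblast-enriched fraction the 2 pairs also lay above 0.1 (0.41 to 0.57), but that comparison was not taken as paired. DESeq2 1.42.0, limma 3.58.1, RLE scaling, no filter, a length offset, all groups in 1 fit, the replicate block and each library left out were alternatives.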

Additional observations from a re-analysis of the deposited data

Results flagged for a closer look

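The dox effect differed between times or lines for several of the 8 genes by a test of the difference itself. From 0 to 24 h in iMyoD1 the log2 difference was -0.74 for Vim, -0.22 for Tpm1, -0.22 for Tpm4, 0.32 for Nes and 0.71 for Synm. Between 48 and 120 h in the whole culture it was 0.55 for Tpm1, 0.51 for Tpm2, 0.44 for Tpm4, 0.45 for Nes and 1.97 for Synm. In iMcam against iCdh23 it was 1.24 for Tpm1, 1.23 for Tpm2, 1.76 for Vim and 1.45 for Nes.

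For other pairs of times every dox library lay on one side of the untreated ones at the first time and on the opposite side at the second, and the difference was not tested. The dox effect on Des was 0.92 lower on the log2 scale at 48 h than at 0 h (difference -0.92) and differed by -1.08 between 24 and 48 h. For Nes the difference was -1.22 from 24 to 48 h and -0.77 from 24 to 120 h. For Tpm1 it was 0.52 from 0 to 120 h and 0.70 from 24 to 120 h. For Synm it was 1.81 from 0 to 120 h and -0.91 from 24 to 48 h.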

How the results depend on the processing

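Changes of call were tallied for a part of the log2 fold changes of the 8 genes. In it, 455 values under another setting and 454 with a library left out kept their direction and side of the threshold. The threshold was lost by 19 and 19, and 7 and 1 newly passed it. Genes outside the tally also newly passed, as with dox at 120 h in the whole culture. Tpm3 changed sign from 48 to 120 h with the length offset (0.20 without dox, 0.038 with dox) and, with dox, with the fractions in place of the whole culture (0.23). The number of the 8 genes that passed with dox at 120 h in the whole culture went from 3 to 5 with all groups in 1 fit. With a library left out it was 3 to 5, the highest without replicate 3 without dox. In the myoblast-enriched fraction it went from 0 to 1 with the replicate block and was 0 to 1 with a library left out (1 without replicate 2 without dox). From 48 to 120 h the fractions in place of the whole culture gave 1 in place of 4 without dox and 0 in place of 6 with dox. Between the fractions without dox, DESeq2 gave 3, no filter 1 and the replicate block 3, in place of 0.

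The differences in dox effect that passed between 0 and 24 h fell from 5 to 3 with RLE scaling or without replicate 1 with dox at 24 h, and those between 48 and 120 h from 5 to 3 without replicate 2 with dox at 48 h. Of the differences in transcript share, 12 moved and 15 stayed the same under another setting. For transcript usage by the exon usage test, dox at 48 h gave 1 to 2. Dox at 120 h in the whole culture gave 1 with limma in place of 0, and 0 to 3 with a library left out (3 without replicate 3 without dox, 1 without replicate 1 with dox). iMcam gave 2 with limma, with at least 10 counts and with the offset test and 3 with the replicate block in place of 1, and 2 without replicate 3 of either group. From 48 to 120 h without dox, limma gave 5 and the offset test 4 in place of 1, and leaving out replicate 2 at 48 h or replicate 1 at 120 h gave 3. From 24 to 48 h with dox limma gave 8 in place of 5. From 48 to 120 h with dox it was 3 in place of 6 without replicate 2 at 48 h or replicate 2 or 3 at 120 h. Between the fractions without dox it was 1 in place of 0 with the replicate block or without replicate 2 of the myoblast-enriched fraction. The causes were not tested. Apart from these counts, the replicate block moved no count of passing genes or transcripts by over 1.5 times. Where the replicate numbers did not pair the samples, Tpm1-205 from 48 to 120 h with dox had an adjusted p of 0.0501 with the block, and Tpm1 with dox at 120 h in the whole culture 0.149.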
